A study of Mus musculus with 20 samples.

Results

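The comparison described here was made in microglia, the resident macrophages of the brain, taken from mouse embryos at embryonic day 16 (E16). It took in 6 of the 20 libraries of the series, 3 called T2MG and 3 called Control, chosen by stage and genotype label alone. Each library came from a different animal, per the series' description, and the microglia had been isolated by fluorescence-activated cell sorting, with markers and gates not given in the sources used here. The labels state that T2MG cells lacked TGF-beta signalling, and the description speaks of cells without 1 copy or both copies of Tgfbr2, a receptor gene of the pathway. The genotype of the Control animals, the promoter behind any Cre and the deleted part of the gene are not spelled out, and C57Bl6 and FVB are entered as the strain of both groups. The other 14 libraries, from postnatal days 15 (P15) and 60 (P60), were used for the shared estimate of spread and for a comparison of stages at the end.

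TGF-beta is a secreted cytokine that is held latent in the matrix until it is freed. It binds a pair of receptors, of which TGFBR2 catches the ligand and switches on TGFBR1, and TGFBR1 then phosphorylates SMAD2 and SMAD3, which enter the nucleus with SMAD4. In the adult brain the pathway is known to maintain the expression programme by which microglia are told apart from other macrophages. Microglia descend from yolk sac progenitors that settle in the brain well before E16.

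The 6 libraries held 7437764 to 9221396 counts each, as whole-number reads per gene, and 15568 genes passed the filter on low counts and were tested. Levels are given below as CPM, counts scaled to the size of the library, after TMM normalization, and changes as the log2 fold change of T2MG over Control with its standard error (SE). A gene was called where edgeR's quasi-likelihood test gave an adjusted p (Benjamini-Hochberg, across every gene tested) below 0.05, and only called genes are said below to have risen or fallen. Some libraries stood apart from their group. On the first principal component of the 6 libraries, which carried 54.4% of the variance, Control 1 and 2 lay at -70.2 and -58.5 and the T2MG libraries between 33.8 and 46.5, while Control 3 lay between the groups at 5.51. T2MG 2 was the library with Y-linked reads (Ddx3y 42.8 CPM, against 0 to 0.101 CPM in the other 5) and almost no Xist (0.831 CPM, against 63.5 to 131 CPM). Results that rest on 1 library are named with their value without it.

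Markers of other brain cells were present in both groups, and the neuronal and astrocyte sums were higher in T2MG. The 24 neuronal markers summed to 1160, 1470 and 2100 CPM in Control 1, 2 and 3 and to 2610, 3120 and 2600 CPM in T2MG 1, 2 and 3, so the groups did not overlap and Control 3 was nearest to T2MG. All 24 had a fold change above 0 (median 0.90), 0 were called, 8 had an unadjusted p under 0.05, and none was at 0 in all libraries. The 16 astrocyte markers summed to 146, 204 and 399 CPM in Control and to 541, 485 and 502 CPM in T2MG, with 16 of 16 folds above 0 (median 0.97), 0 called and 7 at an unadjusted p under 0.05. Summed levels of the 20 radial glia and neural progenitor markers overlapped, at 1190 to 1520 CPM in Control and 1430 to 1560 CPM in T2MG. The median fold of that list was 1.07, with 15 folds above 0 and 5 below. Map2, a neuronal microtubule protein, showed the order of the libraries, at 35.8, 84.4 and 131 CPM in Control, against 190, 258 and 219 CPM in T2MG (log2 fold change 1.41, SE 0.39, adjusted p = 0.0556).

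**Figure D1:**
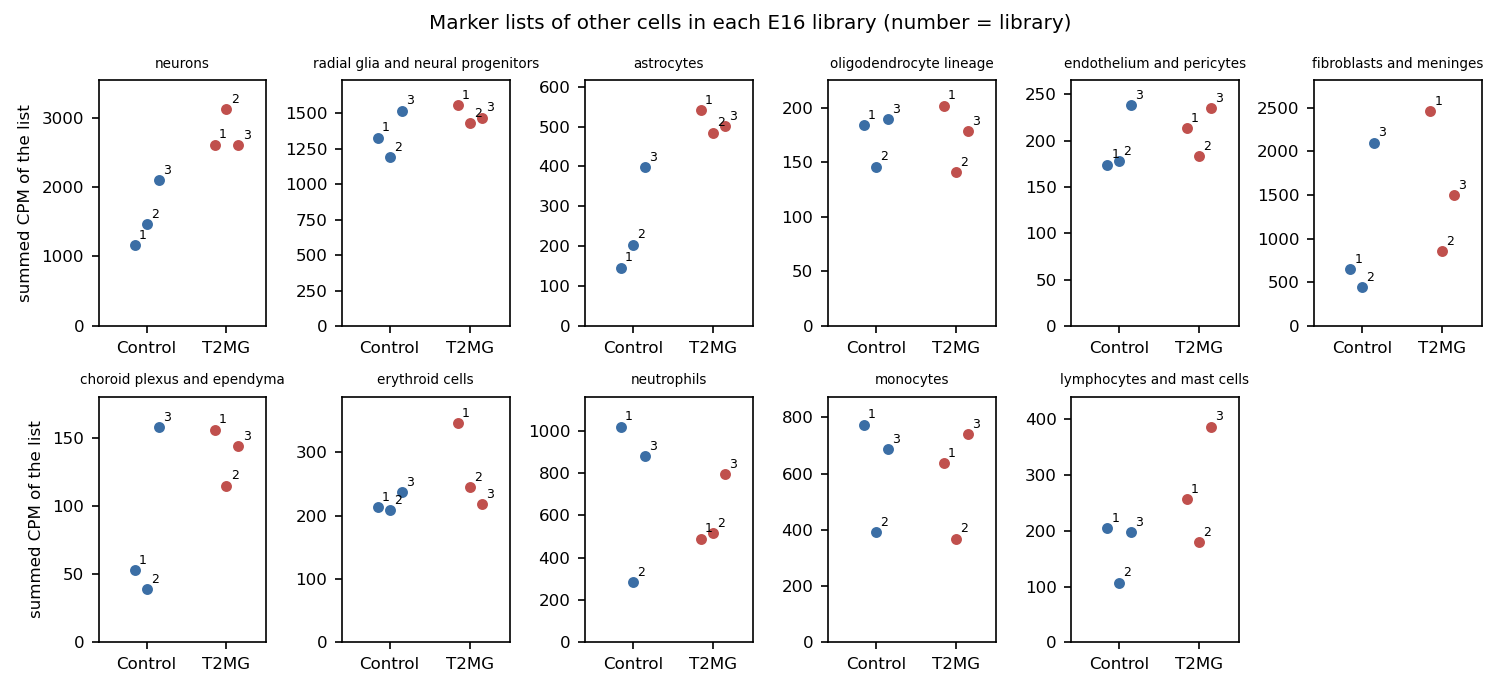
Summed CPM (vertical axes, each from 0) of the marker lists of 11 other cell types in each of the 3 Control and 3 T2MG libraries of E16, 1 numbered point per library. Neuronal sums were 1160 to 2100 CPM in Control and 2600 to 3120 CPM in T2MG, astrocyte sums 146 to 399 and 485 to 541 CPM, and in both lists Control 3 was the highest Control library.

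Of the remaining lists of other cells, fibroblast and meningeal markers ranged from 443 to 2100 CPM in Control and from 857 to 2460 CPM in T2MG, and choroid plexus markers from 39.1 to 158 CPM and from 115 to 156 CPM. Both sums overlapped between the groups, with Control 3 the highest Control library. Their median folds were 0.60 and 0.73, with 13 of 13 and 11 of 11 folds above 0 and 0 genes called. Oligodendrocyte lineage, endothelial and erythroid markers had median folds of 0.33, 0.47 and 0.17 with 0 genes called. Among the immune lists, neutrophil markers had a median of -0.37 with 1 call, Csf3r, a receptor that microglia also express; monocyte markers had a median of -0.39 and lymphocyte and mast cell markers 0.04, with 0 calls. Sorted bulk RNA does not tell fewer cells of a type from less RNA per cell. The fits that carry a marker list's level as a covariate are given beside the counts below; beyond those fits, the part of other cells in the results was not tested.

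Markers shared by macrophages were present in both groups. Csf1r, the receptor that microglia need to survive, stood at 3310 to 5980 CPM in Control and 2450 to 3700 CPM in T2MG (log2 fold change -0.58, adjusted p = 0.326), and Ptprc, which encodes the leukocyte antigen CD45, at 230 to 280 CPM and 266 to 322 CPM (0.24, adjusted p = 0.492). Aif1, which encodes IBA1, was at 70.8 to 146 and 57.7 to 102 CPM (-0.55, adjusted p = 0.49). The groups overlapped in these 3 genes. Cx3cr1, the fractalkine receptor, was at 797 to 1600 CPM against 484 to 714 CPM, without overlap, but missed the threshold (-1.11, SE 0.57, adjusted p = 0.324).

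Tgfbr2 itself was counted in every library, at 196, 293 and 202 CPM in Control 1, 2 and 3 and 165, 232 and 179 CPM in T2MG 1, 2 and 3. The groups overlapped, and the fold change of -0.26 (SE 0.23) had an adjusted p of 0.573. A gene-level count takes in exons outside a deletion, so it does not check the label. Pmepa1, a SMAD-induced inhibitor of the pathway, fell from 52.4, 103 and 47.6 CPM to 17.8, 14.8 and 14 CPM (-2.12, SE 0.53, adjusted p = 0.0366), with no overlap. Smad7, the inhibitory SMAD that the pathway induces, was at 19.4, 41.1 and 23.1 CPM in Control, against 10.7, 9.61 and 10.7 CPM in T2MG, but missed the threshold (-1.43, SE 0.39, adjusted p = 0.0573).

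Across the pathway's 30 receptors, SMADs and feedback genes, 1 rose, 2 fell and the median fold was -0.02, beside 0.04 over all genes tested. Tgfbr1, the partner receptor, fell from 180, 510 and 224 CPM to 109, 141 and 114 CPM (-1.33, SE 0.30, adjusted p = 0.0213). Bmpr1a, a receptor of the related BMP ligands, rose from 15.2, 24 and 27.6 CPM to 36.6, 43.4 and 41.6 CPM (0.86, SE 0.23, adjusted p = 0.0498). None of these calls held without each library in turn: Tgfbr1 was lost without Control 2, T2MG 1 or T2MG 3 (adjusted p 0.1 to 0.152), Pmepa1 without any library but Control 3 (0.0742 to 0.188) and Bmpr1a likewise (0.101 to 0.282). Of the 17 ligand and activation genes tested, 0 were called.

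Over all genes, 498 of 15568 were called at E16 (3.2%), of which 82 rose (0.527%) and 416 fell (2.67%). A change of at least 2-fold as well was met by 1.54% of all genes, 41 that rose (0.263%) and 198 that fell (1.27%). An unadjusted p under 0.05 was reached by 2688 genes (17.3%), and the Control and T2MG libraries did not overlap in 34.4% of all genes (T2MG higher in 19.1% and lower in 15.2%). The median fold of all genes was 0.04, with quartiles of -0.27 and 0.50. The shares of 2.67% lower and 0.527% higher are those to hold beside each E16 list count in this report. The excess of falls depended on the tool: 16.5% of calls were higher with edgeR, 34.4% with DESeq2 (339 higher, 647 lower) and 59.7% with limma voom (715 higher, 483 lower).

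**Figure D2:**
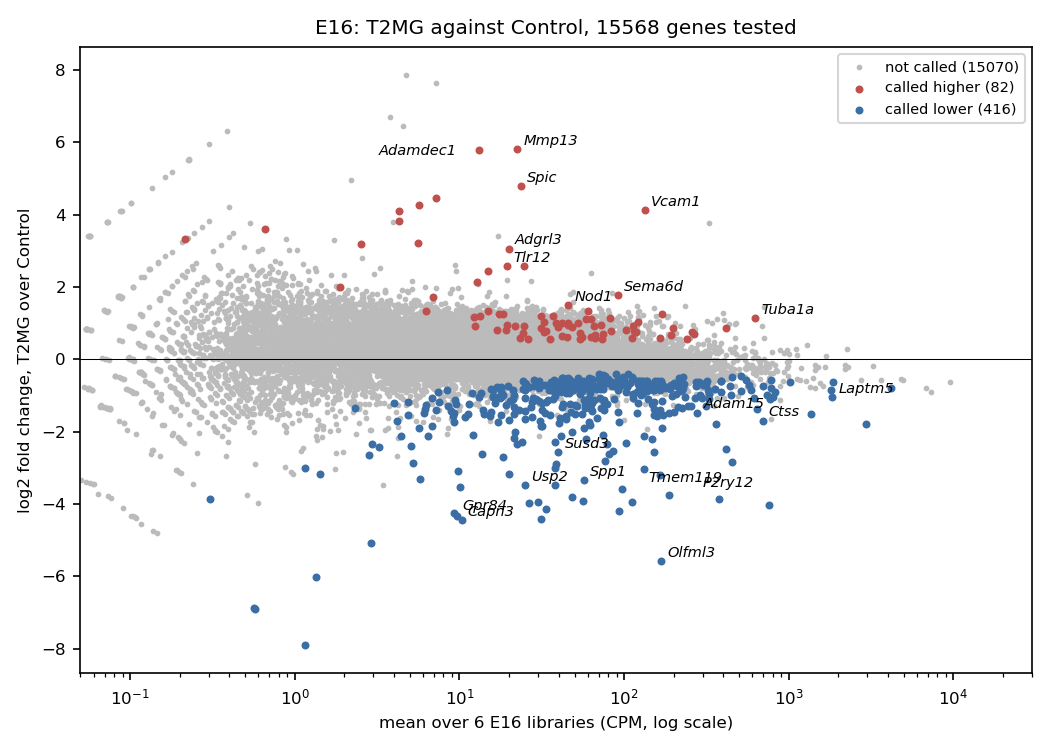
Log2 fold change of T2MG over Control at E16 (vertical axis) against the mean level over the 6 libraries (CPM, log axis), 1 point per gene tested, with the 82 genes called higher in red and the 416 called lower in blue. Large called falls of well measured genes, such as Olfml3 at -5.59 and P2ry12 at -3.86, lie at higher levels than the largest rises, Mmp13 at 5.82 and Adamdec1 at 5.77.

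Single libraries moved these counts. Without Control 1 or Control 2 the rises numbered 13 or 16 and the falls 191 or 132, and without Control 3, the library that lay between the groups, they numbered 265 and 696. Without T2MG 1, 2 or 3 there were 40, 17 or 30 rises and 164, 253 or 162 falls. With the neuronal list's level in each library as a covariate 16 rises and 160 falls remained in that fit, of which 13 and 148 were among the main calls. The same counts were 16 and 144 with the astrocyte list (13 and 139 shared) and 7 and 81 with the radial glia list (7 and 80 shared). In each of these fits, all 82 and all 416 genes kept the sign of their fold. Each covariate fit used a common slope over all 20 libraries, so the P15 and P60 libraries also set it. The lists' median levels did not overlap between the E16 groups, so the covariate and the genotype share variation.

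The genes that rose most were 20 with no overlap between groups and a mean of at least 10 CPM, and the first among them encode secreted proteases. Mmp13, a collagenase that cuts fibrillar collagen, was at 1.29, 0.405 and 0.647 CPM in Control 1, 2 and 3 and at 28.9, 60.9 and 43.1 CPM in T2MG 1, 2 and 3. Every T2MG library was far above every Control library, and the log2 fold change was 5.82 (SE 0.84, adjusted p = 0.000926). Adamdec1, a disintegrin-like metalloprotease known from gut macrophages, rose from 0.396, 0.506 and 0.485 CPM to 15.9, 35.7 and 26 CPM (5.77, SE 0.84, adjusted p = 0.000926). In both genes T2MG 2 was the highest library and T2MG 1 the lowest of the T2MG group.

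Within the 27 matrix proteases and inhibitors, 2 rose and 3 fell, and the median fold was -0.34. The falls were the membrane metalloprotease Adam15, from 319 to 464 CPM in Control to 129 to 171 CPM in T2MG (-1.47, SE 0.18, adjusted p = 0.000245), and the protease inhibitors Spint1 and Serpine2. Spint1, a Kunitz-type inhibitor of hepatocyte growth factor activator, went from 51.6, 99.5 and 38.4 CPM to 3.99, 2.31 and 4.38 CPM (-4.15, SE 0.59, adjusted p = 0.000791). Serpine2, an inhibitor of thrombin and plasminogen activators, went from 192, 501 and 201 CPM to 42.7, 26.4 and 28.9 CPM (-3.19, SE 0.49, adjusted p = 0.00131). So the list held 2 risen proteases, Mmp13 and Adamdec1, beside a protease and 2 inhibitors that fell. Spint1 and Serpine2 are also on the list of homeostatic microglial genes described below.

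The 250 bases upstream of 3 genes are shown because they carry a motif searched for and belong to genes that moved strongly, in opposite directions or differently at later stages: Mmp13 rose, and Havcr2 and Spp1 fell. The sequences are RefSeq's for GRCm38.p6, 5′ to 3′ on the gene's strand, which is the plus strand for all 3. The windows are chr9:7272264-7272513 for Mmp13, chr5:104434861-104435110 for the first start of Spp1 and chr11:46454681-46454930 for Havcr2. Capitals mark each motif.
Mmp13: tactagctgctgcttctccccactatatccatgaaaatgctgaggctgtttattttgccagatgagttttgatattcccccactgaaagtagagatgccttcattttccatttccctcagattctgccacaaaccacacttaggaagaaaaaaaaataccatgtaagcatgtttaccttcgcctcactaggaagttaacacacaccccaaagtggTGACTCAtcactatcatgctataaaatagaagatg
Spp1: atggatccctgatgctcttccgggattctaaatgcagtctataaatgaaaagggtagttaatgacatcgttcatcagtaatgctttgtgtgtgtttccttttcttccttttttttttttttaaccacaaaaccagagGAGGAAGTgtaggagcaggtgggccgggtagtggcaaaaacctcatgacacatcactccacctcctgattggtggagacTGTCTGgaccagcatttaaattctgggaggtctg
Havcr2: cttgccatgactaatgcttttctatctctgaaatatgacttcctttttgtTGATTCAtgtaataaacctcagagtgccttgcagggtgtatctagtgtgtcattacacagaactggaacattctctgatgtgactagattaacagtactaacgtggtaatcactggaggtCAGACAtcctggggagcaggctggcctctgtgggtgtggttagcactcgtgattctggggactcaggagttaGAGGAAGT
In Mmp13 the capitals are an AP-1 type site, TGANTCA, that begins 35 bases before the start. In Spp1 they are GAGGAAGT, a PU.1-type ETS site, at 113 bases and TGTCTG, the reverse strand of the SMAD-type CAGACA, at 34 bases. Havcr2 holds all 3, with TGANTCA at 200, CAGACA at 80 and GAGGAAGT at 8 bases before the start.

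Those letters and GTCTAGAC, a palindromic SMAD-type site, were searched on both strands in windows of 300 bases, from 250 before to 50 after the start, and windows were matched for 11720 of the 15568 genes tested. CAGACA was present for 19.4% of these genes, for 24.7% of the 328 matched genes that fell and for 20% of the 60 matched genes that rose. GAGGAAGT was present for 3.72% of tested, 9.15% of fallen and 1.67% of risen genes, and TGANTCA for 6.46%, 7.01% and 3.33%. GTCTAGAC was present for 0.265%, 0.305% and 0% of the same sets. These shares describe letters in a window, not bound sites, and were not tested.

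Several risen genes are known from macrophages that recycle iron. Spic, the transcription factor that red pulp macrophages of the spleen need, rose from 2.57, 1.62 and 0.808 CPM to 32.3, 64 and 40.8 CPM (4.79, SE 0.61, adjusted p = 0.0004). Vcam1, an adhesion molecule on those macrophages that holds leukocytes by their integrins, rose from 12.4, 8.8 and 22.6 CPM to 180, 386 and 196 CPM (4.11, SE 0.69, adjusted p = 0.00256). For both, the lowest T2MG library was several times the highest Control library. Treml4, a receptor of splenic macrophages that binds dying cells, rose from 6.83, 3.84 and 3.31 CPM to 18.1, 36 and 21.3 CPM (2.43, SE 0.58, adjusted p = 0.029), a call that was lost when any 1 of the 6 libraries was left out (adjusted p 0.0501 to 0.147).

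The wider iron and heme list did not move with Spic and Vcam1. Of its 21 genes tested, those 2 rose and 1 fell, and the median fold was -0.07. The fall was Nfe2l2, which encodes the oxidative stress regulator NRF2, from 118, 132 and 105 CPM to 65.1, 64.8 and 65.7 CPM (-0.86, SE 0.12, adjusted p = 0.000658), with T2MG libraries almost equal to each other.

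Scavenger receptors went both ways. Marco, a class A receptor for bacteria and particles, rose from 0.693, 0.506 and 0.485 CPM to 4.84, 11.3 and 8.11 CPM (3.83, SE 0.82, adjusted p = 0.0158), and Stab2, a receptor for hyaluronan, from 1.39, 0.809 and 1.05 CPM to 7.59, 12.7 and 10.2 CPM (3.22, SE 0.69, adjusted p = 0.0158). Both were low, with 18 and 35 counts over the 3 Control libraries, and both calls were lost without Control 1, Control 2 or T2MG 2 (adjusted p 0.0522 to 0.091 and 0.0512 to 0.0991). In the same list of 22, 4 genes fell: Trem2, Havcr2, Itgb5 and Scarb2, and the median was -0.01. Trem2, a lipid-sensing receptor of microglia, fell from 241, 315 and 149 CPM to 29.4, 31.3 and 25.3 CPM (-3.04, SE 0.49, adjusted p = 0.00202). Havcr2, which encodes the checkpoint receptor TIM-3 and whose upstream bases are shown above, fell from 43.2, 88.4 and 38 CPM to 4.37, 2.12 and 4.47 CPM (-3.95, SE 0.77, adjusted p = 0.00782). Itgb5, an integrin that pairs with alpha V, was lost without Control 2, T2MG 1 or T2MG 3 (adjusted p 0.0993 to 0.136), and Scarb2, a lysosomal receptor, without Control 1, Control 2, T2MG 1 or T2MG 3 (0.112 to 0.287).

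Innate sensors of microbes were represented among the rises by Nod1 and Tlr12. Nod1, a cytosolic sensor of bacterial peptidoglycan, rose from 29, 22.9 and 19.6 CPM to 52.8, 74 and 76.1 CPM (1.51, SE 0.22, adjusted p = 0.000791). It was the 1 call among 24 pattern recognition and Fc receptors, whose median was -0.44. Tlr12, a receptor for parasite profilin in mice, rose from 5.94, 5.97 and 4.77 CPM to 20.1, 44.6 and 34.8 CPM (2.58, SE 0.62, adjusted p = 0.0288), but was called without T2MG 1 only among the fits that left out a library (0.0569 to 0.126 in the other 5). Cd1d1, which presents lipids to T cells, rose from 10.5, 8.8 and 13.4 CPM to 22.1, 32.7 and 23 CPM (1.25, SE 0.27, adjusted p = 0.0185), lost without Control 1, Control 2 or T2MG 2 (0.0864 to 0.116).

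The highest rises also held single genes of cell adhesion and axon guidance, families in which few members were called. Adgrl3, a latrophilin of synaptic adhesion in neurons, rose from 2.77, 4.05 and 5.9 CPM to 27, 39.9 and 39.7 CPM (3.06, SE 0.46, adjusted p = 0.00191). Sema6d, a membrane semaphorin, rose from 33.3, 43.6 and 47.2 CPM to 122, 182 and 121 CPM (1.78, SE 0.33, adjusted p = 0.00531), and Ptprm, a receptor phosphatase that binds itself between cells, from 2.97, 3.54 and 7.6 CPM to 17.1, 25 and 20.8 CPM (2.14, SE 0.36, adjusted p = 0.00249). All 3 were picked with no overlap between groups as a condition, and all 3 calls held without each library in turn. Gfra2, the receptor of neurturin, rose from 5.9 to 8.51 CPM in Control to 33.5 to 54.3 CPM in T2MG (2.58, SE 0.56, adjusted p = 0.0166), lost without Control 1, Control 2 or T2MG 2 (0.0601 to 0.0903).

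The 17 adhesion G protein-coupled receptors had a median fold of 0.73 with Adgrl3 as their 1 call, the 30 guidance genes a median of 0.94 with Sema6d higher and Sema4d lower, and the 28 Wnt, Notch and Hedgehog genes a median of 0.88 with 1 call, Tcf7l2, a transcription factor of Wnt signalling. The neuronal, astrocyte and radial glia lists had medians of 0.90, 0.97 and 1.07 in the same libraries. With the neuronal list as a covariate the adjusted p was 0.015 for Adgrl3, 0.00425 for Sema6d, 0.00765 for Ptprm and 0.0436 for Tcf7l2; with the radial glia list it was 0.077, 0.03, 0.0513 and 0.166. The folds of these 4 genes were 3.32, 2.11, 2.23 and 0.95 with the neuronal list and 2.81, 2.00, 1.99 and 0.90 with the radial glia list, beside 3.06, 1.78, 2.14 and 0.93 without a covariate. Tcf7l2, at 67, 69.6 and 99.3 CPM in Control, against 122, 158 and 169 CPM in T2MG (0.93, SE 0.19, adjusted p = 0.01), was lost without Control 1, Control 2 or T2MG 3 (0.0638 to 0.0766). Sema4d, a semaphorin of immune cells, was lost without any library but Control 3 (0.122 to 0.212).

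The rest of the 20 highest rises were smaller, between 1.18 and 1.34. Each kept its direction when a library was left out, but some of those fits lost the call. Slc13a3, a carrier of dicarboxylates, was at 7.28 to 9.62 CPM in Control and 19.7 to 24.4 CPM in T2MG (1.34, SE 0.26, adjusted p = 0.00803) and was lost without Control 2 (0.0629), with folds of 1.24 to 1.45 when 1 library was left out. Sik1, a salt-inducible kinase, was at 18 to 27.9 and 47.4 to 57.4 CPM (1.18, SE 0.23, adjusted p = 0.00686) and was also lost without Control 2 (0.0605), with folds of 1.04 to 1.36. Tspan13, a tetraspanin, was at 88.9 to 119 and 168 to 346 CPM, highest in T2MG 2 (1.24, SE 0.24, adjusted p = 0.00771), and was lost without Control 1 (0.0539), with folds of 0.87 to 1.44. Gdpd1, an enzyme of lysophospholipid breakdown, was lost without Control 1 (0.0602) or Control 2 (0.0598), with folds of 1.12 to 1.55.

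A further 4 of those 20 were lost in more of these fits. Xrcc5, the KU80 subunit of DNA end joining, was lost without Control 1, Control 2, T2MG 1 or T2MG 3 (adjusted p 0.0661 to 0.122), with folds of 1.01 to 1.42. Adam22, a synaptic receptor of LGI1, Dennd5b, a Rab exchange factor, and Fnbp1l, an actin regulator at membranes, were called only without Control 3 among the fits that left out a library (adjusted p without each of the other libraries 0.0745 to 0.259). In all, 8 of the 20 highest rises were called in all 6 such fits (Mmp13, Adamdec1, Spic, Vcam1, Adgrl3, Ptprm, Sema6d and Nod1). With the neuronal list as a covariate 9 of the 20 were called, those 8 and Sik1, and with the astrocyte list the same number; with the radial glia list 5 were, and Vcam1 missed the threshold with a fold of 3.37 against 4.11 without the covariate (adjusted p = 0.0865).

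**Figure D3:**
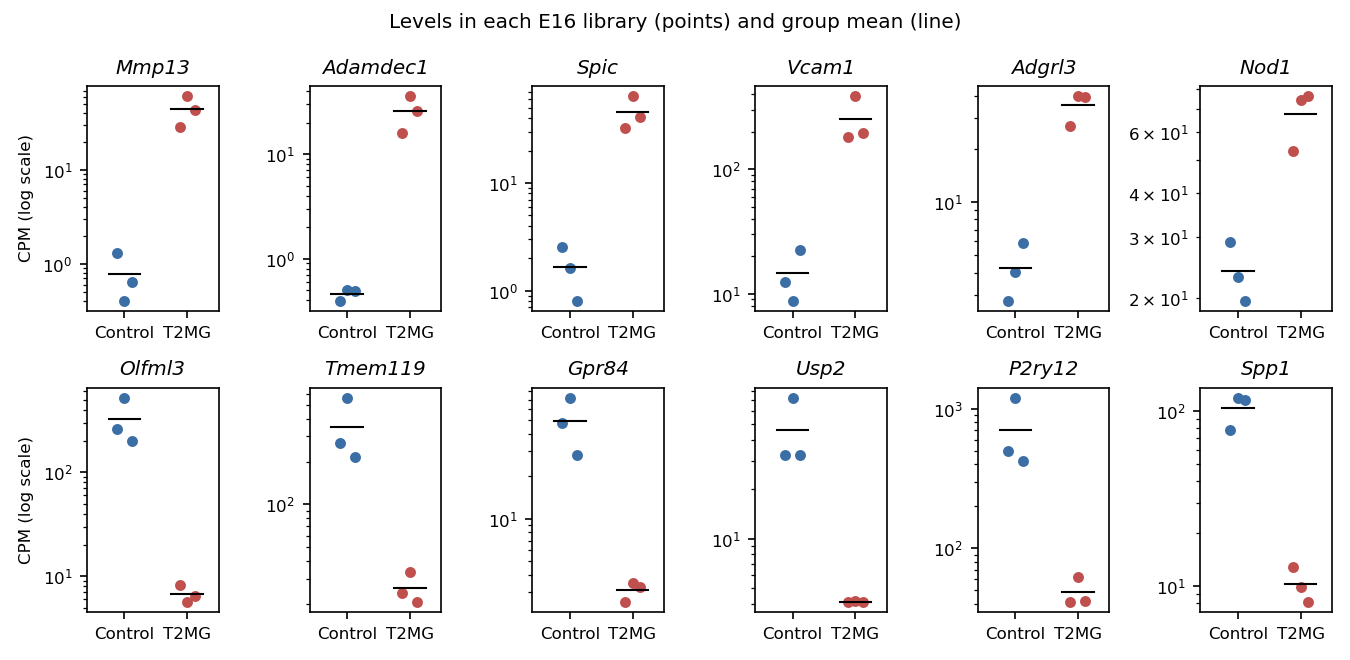
Levels of 6 genes that rose (top) and 6 that fell (bottom) in each E16 library, in CPM on log axes, with 1 point per library and a line at the group mean. No gene shown has a Control library inside the T2MG range, a condition by which all were picked. Usp2 was at 32.3 to 72.7 CPM in Control and 4.08 to 4.16 CPM in T2MG.

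Genes that fell were led by Olfml3, a secreted olfactomedin of microglia, from 260, 521 and 200 CPM to 8.26, 5.63 and 6.47 CPM (-5.59, SE 0.89, adjusted p = 0.00175). The homeostatic list, the genes by which adult microglia are recognised, had 26 of 37 members lower and 0 higher, with a median fold of -1.89. Its members, like those of the other lists, were chosen with earlier results of these data known. Tmem119, a membrane protein of unclear role, fell from 272, 562 and 216 CPM to 23.8, 33.6 and 20.5 CPM (-3.75, SE 0.64, adjusted p = 0.00324). Control 2 was the highest library for both Olfml3 and Tmem119, and the T2MG libraries were close together. Sall1, the transcription factor that marks microglia, fell from 78.4, 238 and 87.5 CPM to 17.4, 18.7 and 21 CPM (-2.82, SE 0.53, adjusted p = 0.0063), lost without Control 2 (0.0527). Crybb1, a crystallin known from microglia, fell from 89.4, 131 and 50.3 CPM to 5.98, 7.39 and 5.93 CPM (-3.81, SE 0.56, adjusted p = 0.000997), and Siglech, a sialic acid-binding lectin, from 148, 366 and 118 CPM to 11.4, 18.7 and 11.3 CPM (-3.93, SE 0.63, adjusted p = 0.00171), and both were called without each library in turn.

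All 20 of the lowest folds were called in each fit that left out a library and with each marker list as a covariate. They held genes outside the usual microglial lists. Usp2, a deubiquitinase under circadian control, had the smallest adjusted p of all (1.43e-05) and fell from 32.3, 72.7 and 32.5 CPM to 4.08, 4.16 and 4.1 CPM (-3.47, SE 0.30). Capn3, a calcium-dependent protease known from muscle, fell from 12.6, 35 and 11.6 CPM to 0.949, 0.277 and 1.46 CPM (-4.44, SE 0.77, adjusted p = 0.00355). Gal3st4, which adds sulfate to galactose of glycoproteins, fell from 39.7, 101 and 39.4 CPM to 2.85, 3.42 and 2.1 CPM (-4.42, SE 0.78, adjusted p = 0.00403).

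F11r, the junctional adhesion molecule JAM-A, fell from 138, 292 and 101 CPM to 12.4, 5.26 and 11.4 CPM (-4.19, SE 0.62, adjusted p = 0.000997). Rtn4rl1, a homologue of the Nogo receptor, fell from 46.5 to 113 CPM in Control to 5.56 to 7.12 CPM in T2MG (-3.46, SE 0.52, adjusted p = 0.00119), and Plxdc2, a membrane protein with a plexin domain, from 111 to 301 CPM to 13.9 to 16 CPM (-3.59, SE 0.53, adjusted p = 0.000997). F11r belonged to 25 adhesion and leukocyte integrin genes of which 1 rose (Vcam1) and 5 fell, with a median of -0.47. The other falls there were Cd9, a tetraspanin (-2.54, adjusted p = 0.000791), Selplg, the P-selectin ligand (-1.54, 0.000489), Itgam, which encodes CD11b (-1.28, 0.00496), and Itgb5.

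Spp1, which encodes the secreted phosphoprotein osteopontin, fell from 77.4, 119 and 115 CPM to 12.8, 9.88 and 8.11 CPM (-3.34, SE 0.54, adjusted p = 0.00177). It was 1 of 3 falls among 23 matrix and matricellular genes, with Olfml3 and Sparc, a collagen-binding glycoprotein that went from 514, 1080 and 509 CPM to 176, 86.4 and 113 CPM (-2.49, SE 0.41, adjusted p = 0.0025). The median of that list was 0.49 with 0 rises. In the same list 15 folds were above 0 and 8 below. The fibroblast markers of these libraries overlapped in sum between groups, with 13 of 13 folds above 0, as given above.

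Of 16 purinergic receptors and ectoenzymes, 6 fell and 0 rose, and the median was -0.63. P2ry12, the ADP receptor that steers microglial processes, fell from 495, 1200 and 422 CPM to 41, 62.4 and 41.8 CPM (-3.86, SE 0.53, adjusted p = 0.000659), and its neighbour P2ry13 from 176, 390 and 160 CPM to 39.5, 80.7 and 37.7 CPM (-2.20, SE 0.37, adjusted p = 0.00275). Entpd1, the ectoenzyme CD39 that breaks down ATP, was lost without Control 2, T2MG 1 or T2MG 3 (0.115 to 0.16), and the adenosine receptor Adora3 without Control 2, T2MG 1 or T2MG 2 (0.0761 to 0.123). P2rx1, an ATP-gated channel (-1.16, adjusted p = 0.0311), and Pnp, a purine phosphorylase (-0.82, 0.0388), were lost without Control 1, Control 2, T2MG 1 or T2MG 2, and Pnp also without T2MG 3 (0.0987 to 0.297).

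Blnk, the adaptor below the B cell receptor and related receptors, fell from 30, 54.5 and 23.4 CPM to 4.75, 2.68 and 4.56 CPM (-3.17, SE 0.39, adjusted p = 0.000261). Rasgrp3, which loads GTP onto Ras, fell from 52.4, 110 and 42.1 CPM to 10.4, 7.85 and 9.39 CPM (-2.88, SE 0.53, adjusted p = 0.00536), and Rasal3, which has the opposing activity on Ras, from 102, 210 and 104 CPM to 28, 13.9 and 25.3 CPM (-2.63, SE 0.31, adjusted p = 0.000245). All 3 were lower in every T2MG library than in any Control library, which was a condition for picking Blnk and Rasal3.

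Among 28 MAPK and PI3K regulators, 5 fell and 0 rose, the median was -0.19 and 11 folds were above 0. Besides Rasgrp3 they were Inpp5d, the phosphatase SHIP1 (-1.07, adjusted p = 0.00984, lost without Control 2 at 0.079 or T2MG 1 at 0.0603), Mapk3, the kinase ERK1 (-0.61, 0.0146), Map2k1, the kinase MEK1 (-0.61, 0.0212), and Pik3r5, a subunit of the gamma PI3 kinase (-0.86, 0.0203). Mapk3 was lost without Control 1, Control 2, T2MG 2 or T2MG 3 (0.0553 to 0.101), Map2k1 without Control 1, Control 2 or T2MG 2 (0.0957 to 0.101) and Pik3r5 without any library but Control 3 (0.062 to 0.121).

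Actin and migration regulators had 11 of 30 members lower, 0 higher and 29 of 30 folds below 0 (median -0.61). The calls ran from Arhgap22, a Rac GTPase-activating protein (-1.91, SE 0.37, adjusted p = 0.00721), and Rhob, a small GTPase (-1.36, SE 0.21, adjusted p = 0.00119), to Rhoa at -0.49. Actb, beta-actin, was at a mean of 5320 ± 1620 CPM in Control and 3080 ± 286 CPM in T2MG (SD, n = 3 each; -0.79, SE 0.20, adjusted p = 0.0425). Arhgap22, Rhob and Arhgap25 were the calls that held without each library. Vav1, an exchange factor for Rac, was lost without Control 2 (0.0516), Arpc1b without Control 1, T2MG 2 or T2MG 3 (0.0611 to 0.0991), and Actb, Cfl1, Coro1a, Fermt3, Rhoa and Arpc2 without any library but Control 3 (0.0627 to 0.357).

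Lysosomal genes were the list outside the homeostatic genes with the most falls, at 12 of 30 lower, 0 higher and 29 of 30 folds below 0 (median -0.52). Cathepsins D, L and S, acid proteases of the lysosome, were among them. Ctsd was at a mean of 4560 ± 1630 CPM in Control and 1320 ± 347 CPM in T2MG (SD, n = 3 each; -1.78, SE 0.30, adjusted p = 0.00244). Ctsl fell from 505, 799 and 377 CPM to 160, 193 and 131 CPM (-1.80, SE 0.29, adjusted p = 0.00191), and Ctss, which trims the invariant chain of MHC class II, from 1110, 1380 and 693 CPM to 306, 370 and 308 CPM (-1.69, SE 0.26, adjusted p = 0.00119). No Control library was below a T2MG library for Ctsl or Ctss.

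Laptm5, a lysosomal membrane protein of blood cells, fell from 2580, 3000 and 1870 CPM to 1160, 1300 and 1130 CPM (-1.05, SE 0.17, adjusted p = 0.00221), and it, Ctsz and those 3 cathepsins were called without each library in turn. Gusb was lost without Control 2 (0.054), Lgmn without Control 2 (0.0532) or T2MG 3 (0.0512), and Cst3, the cathepsin inhibitor cystatin C, without Control 2, T2MG 1 or T2MG 3 (0.0614 to 0.0686). Npc2, Grn and Cd63, a cholesterol carrier, progranulin and a tetraspanin, were lost without Control 1, Control 2, T2MG 1 or T2MG 3 (0.0857 to 0.219). Of 15 V-ATPase subunits, which acidify the lysosome, only Atp6v0b was called (-0.71, adjusted p = 0.0288; lost without Control 1, Control 2, T2MG 1 or T2MG 3, 0.132 to 0.158), and of 22 autophagy genes 0 were.

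Ion channels and transporters had 6 of 24 members lower and 0 higher (median -0.45). Kcnk13, the potassium channel THIK-1 that sets the resting potential of microglia, fell from 31.7, 54.7 and 25.9 CPM to 7.5, 8.87 and 5.93 CPM (-2.33, SE 0.25, adjusted p = 8.78e-05). Hvcn1, the proton channel that offsets the charge of the oxidative burst, fell from 46.1, 68.2 and 44.3 CPM to 20.4, 16.8 and 17.8 CPM (-1.53, SE 0.23, adjusted p = 0.00126), and the potassium channel Kcnd1 from 13.9, 29.7 and 15.4 CPM to 4.56, 4.9 and 4.47 CPM (-2.08, SE 0.36, adjusted p = 0.00364). Orai1, the store-operated calcium channel (-0.77, adjusted p = 0.0063), and Trpv2 (-0.70, 0.00647) also held without each library, and Clic1 (-0.69, 0.0249) was lost without any library but Control 3 (0.0512 to 0.172).

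The list of 27 pentose phosphate, NADPH and glutathione genes had 3 falls and a median of -0.34. Ncf1, the p47 subunit of the phagocyte NADPH oxidase, which makes superoxide, fell from 406, 371 and 306 CPM to 164, 111 and 168 CPM (-1.29, SE 0.26, adjusted p = 0.0118; lost without Control 1, Control 2 or T2MG 2, 0.0533 to 0.0649). Gclc, an enzyme of glutathione synthesis, was also called (-0.72, adjusted p = 0.0406; lost without any library but Control 3, 0.0777 to 0.219).

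Sugar handling genes had 5 of 25 lower, 0 higher and a median of -0.38. Slc2a5, the fructose carrier of microglia, fell from 72.5, 174 and 70.6 CPM to 6.74, 6.74 and 7.29 CPM (-3.93, SE 0.67, adjusted p = 0.00296). Hk2, a hexokinase, fell from 64.5, 65.9 and 48.9 CPM to 26.1, 20.8 and 28.7 CPM (-1.24, SE 0.19, adjusted p = 0.00126), and Slc16a3, the lactate carrier MCT4, from 115, 105 and 95.1 CPM to 46.5, 43.1 and 50 CPM (-1.17, SE 0.23, adjusted p = 0.00735). Aldoa, aldolase (-0.74, 0.0213), was lost without Control 1, T2MG 1, T2MG 2 or T2MG 3 (0.0705 to 0.15), and Hk3 (-0.76, 0.0445) without any library but Control 3 (0.11 to 0.209). Genes of oxidative phosphorylation and of the serine and one-carbon pathways had 0 calls of 32 and of 24, and sterol synthesis had 1 of 24, Acat2, which was higher (0.78, 0.0443; lost without any library but Control 3, 0.101 to 0.253).

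Secreted immune signals were lower where they were called, as were 416 of the 498 genes called over all. Il1a, interleukin 1 alpha, fell from 18.8, 34.9 and 17.1 CPM to 3.32, 5.08 and 3.01 CPM (-2.63, SE 0.41, adjusted p = 0.00155), and Ccl4, a chemokine of macrophages, from 31.1, 39.1 and 34 CPM to 10.4, 5.54 and 9.94 CPM (-2.0, SE 0.34, adjusted p = 0.00296). Csf1, a ligand of CSF1R, fell from 44.2, 87 and 54.6 CPM to 22.1, 13.9 and 18.4 CPM (-1.77, SE 0.36, adjusted p = 0.0103; lost without Control 2, T2MG 2 or T2MG 3, 0.053 to 0.0775). The cytokine list had 5 of 25 lower, the others being Vegfb, Grn and Pros1, and the chemokine list 2 of 20, the other being Ccl3 (-1.72, 0.022; lost without any library but Control 3, 0.0512 to 0.107). Vegfb was lost without any library but Control 3 (0.0546 to 0.102), Grn without Control 1, Control 2, T2MG 1 or T2MG 3 (0.0988 to 0.13) and Pros1 without Control 2, T2MG 1 or T2MG 3 (0.145 to 0.229).

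Receptors for such signals also had falls and no rise, beside 2.67% of all genes lower and 0.527% higher. Gpr84, which senses medium-chain fatty acids, fell from 47.8, 72.1 and 28.5 CPM to 2.56, 3.51 and 3.28 CPM (-3.98, SE 0.40, adjusted p = 4.81e-05), 1 of 3 falls among 18 chemoattractant receptors, with Gpr183 also called (-1.27, 0.049; lost without any library but Control 3, 0.0995 to 0.196). Csf3r, the granulocyte colony-stimulating factor receptor, fell from 130, 161 and 112 CPM to 52.1, 35 and 58.5 CPM (-1.47, SE 0.22, adjusted p = 0.000997), 1 of 4 falls among 25 cytokine receptors. Il6ra (-0.81, 0.0352) and Il10ra (-0.80, 0.0456) were lost without any library but Control 3 (0.0716 to 0.269), and Ifngr2 (-0.61, 0.0325) without Control 1, Control 2, T2MG 1 or T2MG 3 (0.0925 to 0.183).

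Of 40 myeloid transcription factors, Spic rose and 8 fell, and the median was -0.51. Bhlhe41, a basic helix-loop-helix repressor, fell from 16.1, 27.8 and 11.9 CPM to 2.28, 1.66 and 0.912 CPM (-3.52, SE 0.48, adjusted p = 0.000659), and Cebpa, a regulator of myeloid fate, from 87, 108 and 77.2 CPM to 41.5, 39.7 and 42.6 CPM (-1.14, SE 0.21, adjusted p = 0.00536). Spi1, which encodes PU.1, fell from 534, 390 and 318 CPM to 232, 239 and 220 CPM (-0.84, SE 0.19, adjusted p = 0.0185), with no overlap. The calls of Spi1 and of Irf5 (-0.66, 0.0265) and Hhex (-0.80, 0.033) were lost without any library but Control 3 (0.0519 to 0.193), those of Irf8 (-0.74, 0.01) without Control 1, Control 2, T2MG 1 or T2MG 3 (0.0595 to 0.0764) and Klf2 (-1.57, 0.0202) without Control 1, Control 2, T2MG 2 or T2MG 3 (0.0599 to 0.0945), and that of Sall1 as given above. Elk3, an ETS factor outside that list, fell from 70.2 to 119 CPM in Control to 23.8 to 32.5 CPM in T2MG (-1.74, SE 0.20, adjusted p = 0.000162).

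Calls among immediate early factors were falls, as were 416 of the 498 calls over all genes. Of 27 AP-1, Egr and Kruppel-like factors, 3 fell and 0 rose, with a median of -0.51: Klf2, Atf3 and Jun. Jun, the AP-1 subunit, was at 954, 1240 and 966 CPM in Control, against 569, 342 and 556 CPM in T2MG (-1.11, SE 0.28, adjusted p = 0.0372), and Atf3, a stress-induced factor, at 30.7, 27.3 and 33.7 CPM and 12.4, 5.36 and 11.1 CPM (-1.67, SE 0.40, adjusted p = 0.0305). T2MG 2 was the lowest library for both. Both calls were lost without any library but Control 3 (0.0628 to 0.171).

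Inflammatory lists had between 0 and 2 calls each at this stage, beside 3.2% of all genes called and 2.67% called lower. Of 33 interferon response genes 0 were called (median -0.39), and the 16 inflammasome genes had 2 falls, the DNA sensor Aim2 (27.3, 37.6 and 21 CPM to 12.3, 14.2 and 13.9 CPM; -1.08, SE 0.19, adjusted p = 0.00441) and Gsdmd, the pore former of pyroptosis (-0.82, 0.00948; lost without Control 1, 0.0684). Single falls were found among 20 NF-kappaB genes (Nfkbid, -1.32, 0.0185; lost without any library but Control 3, 0.0543 to 0.0893), 14 MHC class I genes (Psmb10, -0.74, 0.0493; likewise, 0.054 to 0.375) and 11 MHC class II genes (Ctss). The 16 complement genes had 2, Itgam and C1qa, which encodes a chain of C1q (-0.98, 0.0323; lost without Control 1, Control 2, T2MG 1 or T2MG 3, 0.146 to 0.181). Apoe, the lipid carrier, was at 11200, 8630 and 6240 CPM in Control, against 4410, 6630 and 4070 CPM in T2MG, overlapping and not called (-0.79, SE 0.23, adjusted p = 0.0746).

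Calls in other lists are set beside the same 3.2% of all genes called. The 22 yolk sac and border macrophage genes had 0 calls and a median of -0.13; Mrc1, the mannose receptor CD206, was at 964, 1010 and 905 CPM in Control, against 1050, 1320 and 832 CPM in T2MG (0.15, SE 0.40, adjusted p = 0.88). Mitosis and G2/M had 0 calls of 27, with Mki67, a marker of cycling cells, at 113 to 156 CPM and 73.8 to 147 CPM (-0.23, adjusted p = 0.868). DNA replication had 1 fall of 28, Mcm3 (-0.60, 0.035; lost without Control 1, Control 2, T2MG 1 or T2MG 2, 0.129 to 0.182), and the p53 and apoptosis list 1 of 25, Bcl2a1b, a member of a family of near-identical copies whose reads may be split (-1.18, 0.0416; lost without Control 1, Control 2, T2MG 1 or T2MG 3, 0.161 to 0.189).

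Heat shock genes and proteasome subunits had 0 calls of 15 and of 27. Chaperones and the unfolded protein response had 1 fall of 23, Edem1 (-0.97, 0.0111; lost without Control 2 at 0.0849 or T2MG 1 at 0.0501), and lipid transport 3 of 26, Mylip (-1.13, 0.00902), Lpcat3 (-0.67, 0.0161) and Npc2. Mylip was lost without Control 2, T2MG 1 or T2MG 3 (0.0552 to 0.0641) and Lpcat3 without Control 1, Control 2, T2MG 1 or T2MG 3 (0.0777 to 0.113). The hypoxia list had 1 fall of 20, P4ha1 (-0.64, 0.0277), and 28 chromatin regulators 1 rise, Hdac2 (0.59, 0.0236), both lost without any library but Control 3 (0.0638 to 0.163 and 0.0729 to 0.144). Cytosolic ribosomal proteins had 35 of 35 folds below 0 (median -0.46), but 3 calls, among them Rpl10a and Rpl11, which were lost without Control 1, Control 2, T2MG 1 or T2MG 3 (0.0947 to 0.324), and Rpl11 also without T2MG 2 (0.112).

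**Figure D4:**
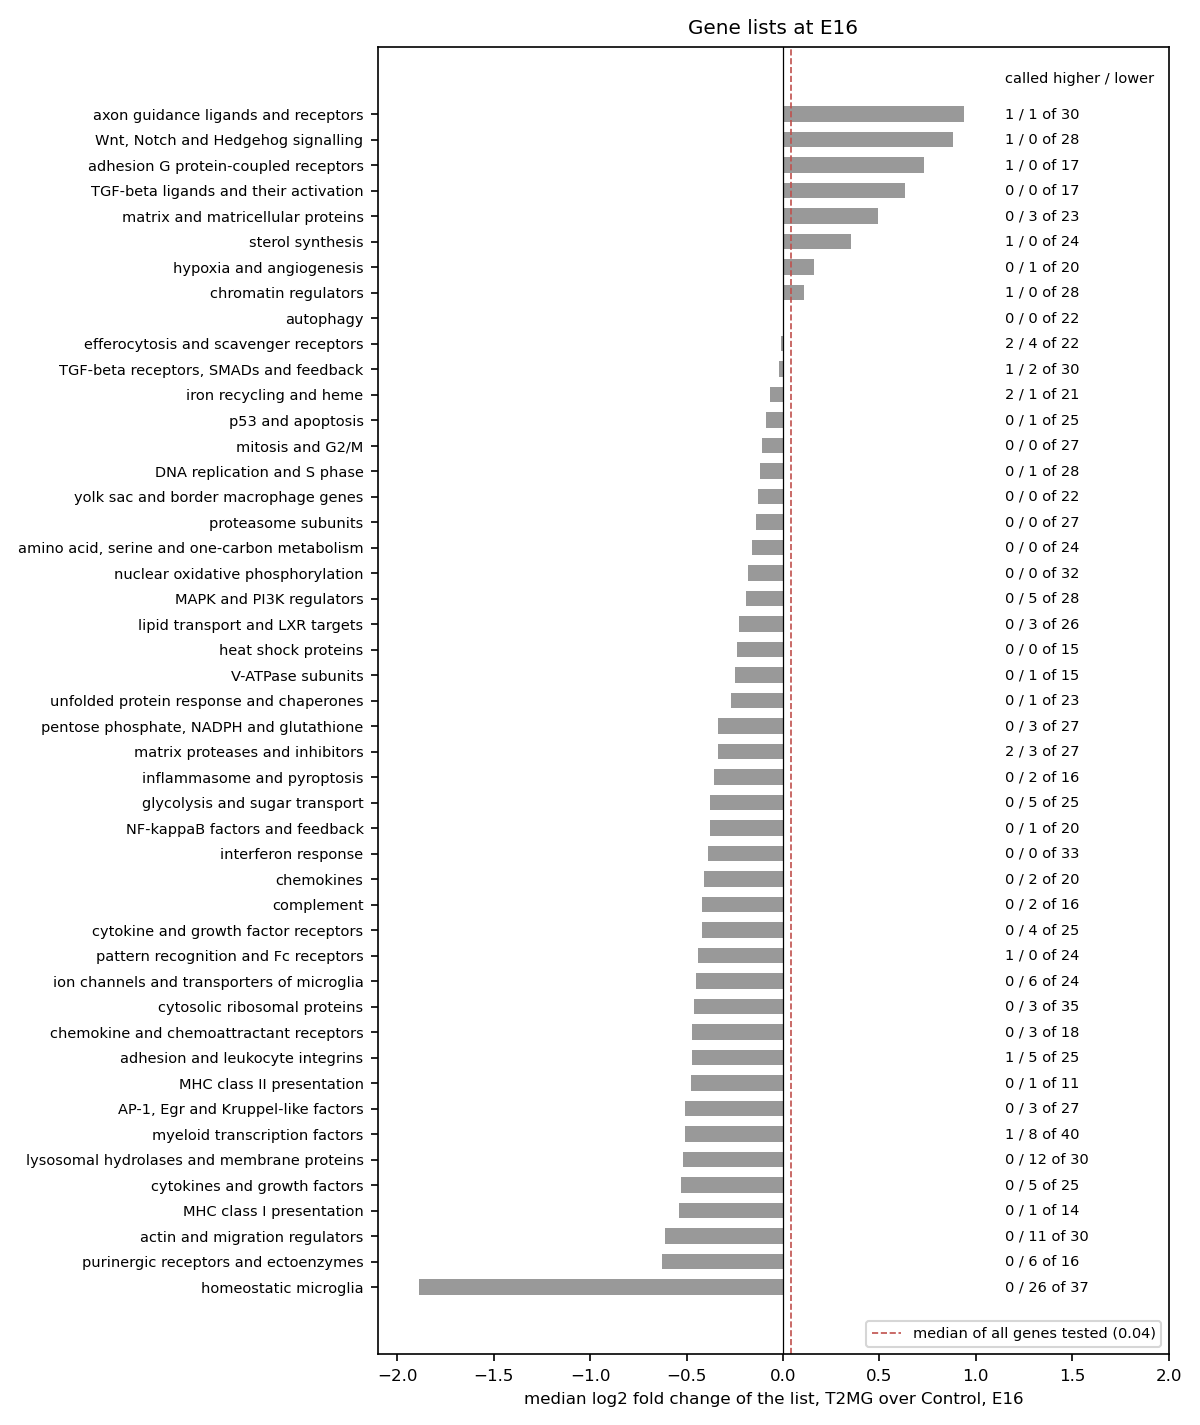
Median log2 fold change at E16 (horizontal axis) of each list of genes other than the marker lists of other cells, with the number of members called higher, called lower and tested at the right and a dashed line at the median of all genes tested, 0.04. The homeostatic list stood lowest at -1.89 with 26 of 37 lower, and axon guidance highest at 0.94 with 1 higher and 1 lower of 30.

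Tuba1a, an alpha-tubulin abundant in young neurons, was at 271, 352 and 544 CPM in Control, against 677, 1210 and 677 CPM in T2MG (1.13, SE 0.26, adjusted p = 0.0236), in the same order of Control libraries as the neuronal sum and highest in T2MG 2 as that sum was. With the neuronal, astrocyte and radial glia lists as a covariate its fold was 1.00, 1.04 and 0.82 and its call was lost (adjusted p = 0.119, 0.102 and 0.496), as it was without Control 1, Control 2 or T2MG 2 (0.122 to 0.149). Mmp13 had folds of 4.92, 5.08 and 5.17 with those 3 covariates (adjusted p = 0.00579, 0.00461 and 0.0367), Spic 4.53, 4.48 and 4.74 (0.00415, 0.00379 and 0.0167), and Nod1 1.56, 1.60 and 1.70 (0.00425, 0.00305 and 0.0086). Among falls, Usp2 had -3.41, -3.37 and -3.46 (7.9e-05, 0.000136 and 0.000429), Ctss -1.81, -1.74 and -1.69 (0.00455, 0.0059 and 0.0239), and Rasgrp3 -2.74, -2.71 and -2.97 (0.0335, 0.0339 and 0.0626). Of all 122 named genes called, 57, 59 and 74 lost their call with the neuronal, astrocyte and radial glia covariates, and none changed sign. Whether the genes differ in their dependence on these lists was not tested.

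Later stages, in other animals with their own controls, had more calls: 24% of genes at P15 and 39.3% at P60. Of the 416 genes that fell at E16, 210 also fell at P15 (50.5% of them, 11% of the P15 falls) and 267 at P60 (64.2% and 10.9%), while 45 and 31 rose there. Of the 82 that rose, 27 also rose at P15 (32.9% of them, 1.48% of the P15 rises) and 34 at P60 (41.5% and 0.927%), while 11 and 17 fell. Over all genes tested, 11.7% were called higher and 12.3% lower at P15, and 23.5% and 15.7% at P60. The calls in either direction are to be held beside these shares. In both later stages 204 of the falls and 24 of the rises were called in the same direction, and 89 falls and 25 rises were called at neither.

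**Figure D5:**
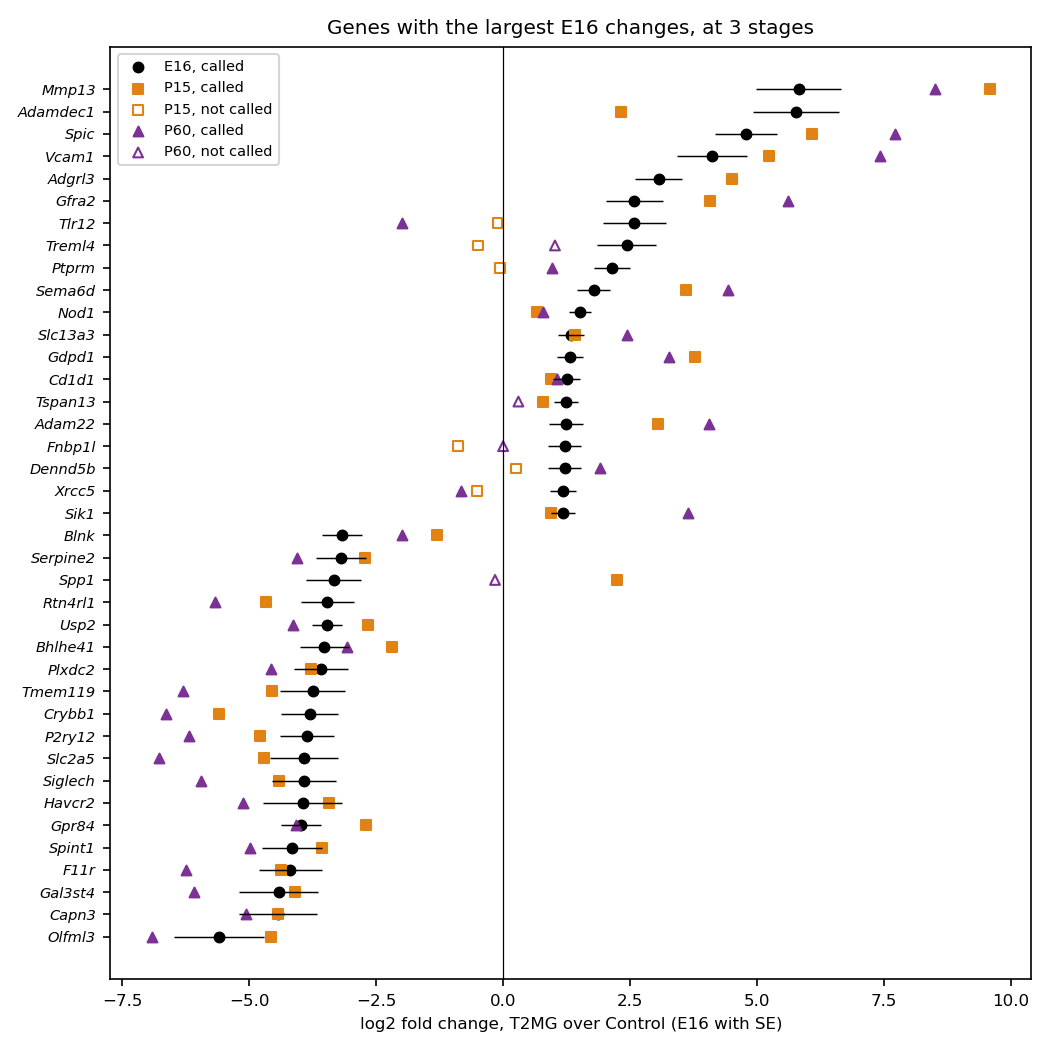
Log2 fold change of T2MG over Control at E16 (black circles with SE), P15 (orange squares) and P60 (purple triangles) for the 20 genes highest and 19 of the 20 lowest at E16, with open symbols where the gene was not called at that stage. Adgrl3 and Adamdec1 at P60 are left out because their P60 Control libraries held 0 and 2 counts in all. All falls shown but Spp1 were called lower at both later stages, and Spp1 was higher at P15 (2.24). Tlr12, Treml4, Fnbp1l and Xrcc5 were not called higher at P15 or P60, and Tlr12 (-1.99) and Xrcc5 (-0.83) were called lower at P60.

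The genotype effect itself differed from E16 in 2534 genes at P15 (16.3%; toward higher in 8.97% and toward lower in 7.31%) and in 3148 at P60 (20.2%; 12.3% and 7.88%). Of the 82 rises, 48 had a called difference at P15, 5 toward a larger rise and 43 toward a smaller or opposite effect, and at P60 these were 15 and 38 of 53; their median fold went from 0.98 at E16 to -0.07 at P15 and 0.24 at P60. Of the 416 falls, 174 had a called difference at P15, 23 toward a larger fall and 151 toward a smaller or opposite effect, and at P60 these were 78 and 106 of 184; their median went from -0.95 to -0.54 and -0.91. The members were picked by their E16 values, which also enter each difference and favour smaller effects later, so these splits and medians are a description and show no weakening with age.

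Spp1 turned round between E16 and P15, at -3.34 at E16 and 2.24 at P15, a difference of 5.58 (SE 0.73, adjusted p = 0.000213). At P60 it had 1535 counts over the Control libraries and 1310 over the T2MG libraries. Mmp13 was at 9.58 at P15 and 8.51 at P60, Spic at 6.08 and 7.72 and Vcam1 at 5.23 and 7.43, all called against their own controls. The effect differed from that at E16 for Mmp13 at P15 (3.76, adjusted p = 0.0434) and missed the threshold at P60 (2.69, SE 1.11, adjusted p = 0.0995), and for Spic and Vcam1 at P60 (2.92 and 3.32, adjusted p = 0.0193 and 0.00845), with P15 differences that missed it (1.28 and 1.12, adjusted p = 0.313 and 0.404). Adamdec1 had a smaller effect at P15 (2.33) than at E16 (difference -3.45, adjusted p = 0.032). Adgrl3 had 238 counts in T2MG and 11 in Control at P15, and 496 in T2MG and 0 in Control at P60. Tuba1a, the tubulin, was higher at E16 and lower at P15 (-1.98) and P60 (-1.77). Rpl10a, a ribosomal protein, was lower at E16 (-0.70) and higher at P15 (0.80) and P60 (0.67), and 35 of the 35 ribosomal proteins tested were called higher at P15 and 32 at P60.

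Counts over the lists differed between stages, beside 11.7% of all genes higher and 12.3% lower at P15 and 23.5% and 15.7% at P60. The yolk sac and border macrophage list, at 0 of 22 at E16, had 16 higher and 1 lower at P15 and 21 higher at P60, with medians of 2.91 and 4.79. Interferon response genes, at 0 of 33, had 4 higher at P15, a share close to that of all genes, and 30 at P60, and mitosis genes, at 0 of 27, had 0 at P15 and 24 higher and 1 lower at P60. Lysosomal genes changed from 12 lower and 0 higher at E16 to 13 higher and 6 lower at P15 and 14 and 7 at P60, and actin regulators from 11 lower and 0 higher to 8 higher and 5 lower at P15 and 5 and 10 at P60. The homeostatic list had 36 of 37 lower at P15 and 37 of 37 at P60. These counts set each stage against its own controls, and the differences between stages were tested gene by gene, as above, not for the lists.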

How the data were processed

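Poly-A libraries were made from Qiagen-purified RNA with Clontech's SMART-Seq kit for very small inputs, per the labels, which amplifies cDNA without molecular identifiers, so reads are not independent molecules. The deposited values are raw counts per gene symbol. The submitters' processing notes list TopHat2 (0.7), Cufflinks (2.2.1) and mm10 without roles; no source used here names the counter, its annotation or its use of strand, so antisense, overlapping and near-identical genes are uncertain.

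Of 24421 entries, 27 with a date in place of a symbol (0.191% to 0.256% of E16 counts) were left out, and 24394 genes stayed, 23350 of them in GENCODE M21. Replicates differed by far more than sampling noise (chi-square per gene 5.3 to 32.5). edgeR 4.0.16 in R 4.3.3 (TMM, filterByExpr, glmQLFit and glmQLFTest, 6 group means over all 20 libraries) tested 15568 genes, after a check on simulated counts; the common biological coefficient of variation was 0.327. P-values were adjusted by Benjamini-Hochberg, threshold 0.05. Alternatives used DESeq2 1.42.0, limma 3.58.1 and edgeR with the median log2 CPM of a marker list, sex or replicate number as a term.

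The genes named are the 20 highest and 20 lowest folds among called genes with at least 10 CPM and no overlap, the 10 smallest adjusted p in each direction, up to 4 called members of each list (or 2 with the smallest p), 5 with the most positive and 5 with the most negative difference between P15 and E16, and a set of fixed markers; other called members of the lists were picked after their values were seen, and some genes that these rules select are not reported here. Members and lists were chosen with earlier results of these data known. Symbols of 1231 of 1234 listed genes were found, in 58 lists.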

Additional observations from a re-analysis of the deposited data

Results flagged for a closer look

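A difference of the genotype effect between stages, tested as an interaction in the same edgeR fit, set these results apart. It passed the threshold in 2534 genes between P15 and E16 and in 3148 between P60 and E16.

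Among genes that rose at E16, Mmp13 had a larger effect at P15 (difference 3.76, SE 1.22, adjusted p = 0.0434), as did Gdpd1 (2.46, SE 0.37, adjusted p = 0.000491). Adamdec1 had a smaller rise at P15 (difference -3.45, SE 1.04, adjusted p = 0.032). Tlr12 (-2.69, SE 0.82, adjusted p = 0.0335) and Treml4 (-2.92, SE 0.79, adjusted p = 0.018) were not called at P15. Their P15 folds were -0.11 and -0.49 (adjusted p = 0.918 and 0.542), and Tlr12 was called lower at P60 (-1.99, adjusted p = 0.00437). Tuba1a (-3.12, SE 0.37, adjusted p = 0.000116) and Lrrc16a, a regulator of actin capping (-2.48, SE 0.34, adjusted p = 0.000277), were higher in T2MG at E16 and lower at P15. Lrrc16a's call at E16 was lost without any library but Control 3 (adjusted p 0.0949 to 0.23).

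Among genes that fell at E16, Spp1 had the largest turn, of 5.58 (SE 0.73, adjusted p = 0.000213). Ccl3 differed by 2.23 (SE 0.54, adjusted p = 0.0102) and Ethe1, a mitochondrial sulfur dioxygenase, by 2.42 (SE 0.41, adjusted p = 0.00121). Ethe1 fell at E16 from 65.6, 38.2 and 36.5 CPM to 21.6, 16.9 and 23.6 CPM and rose at P15 (1.24); the E16 call was lost without any library but Control 3 (0.0654 to 0.248).

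Of genes not called at E16, Apoe differed by 4.30 at P15 (SE 0.34, adjusted p = 2.88e-06) and by 4.93 at P60 (SE 0.32, adjusted p = 9.7e-08), and Mki67 by 2.63 at P60 (SE 0.78, adjusted p = 0.0237). Slc1a3, the glutamate transporter of astrocytes and radial glia, was at 12.7, 26.6 and 45.5 CPM in E16 Control and 61.1, 56.6 and 53.9 CPM in E16 T2MG (1.01, SE 0.34, adjusted p = 0.116). Its effect differed by -3.36 at P15 (SE 0.48, adjusted p = 0.00039) and by -3.51 at P60 (SE 0.45, adjusted p = 4.29e-05). Slc1a3 was called lower in T2MG at both later stages. Its counts were 7767 in Control and 1336 in T2MG at P15, and 11781 and 1995 at P60.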

How the results depend on the processing

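Over the alternative fits, all 82 rises and 416 falls kept their sign, except with the E16 libraries alone, where 80 and 413 did. That fit tested 13908 genes, and a gene it did not test counts as not kept, so the rest need not have turned. RLE scaling gave 91 rises and 312 falls, no filter 62 and 337, and a sex term, added after the data were seen, 63 and 377. The counts moved by more than 1.5 times with DESeq2 (339 and 647), limma voom (715 rises), the E16 libraries alone (244 falls, beside 75 rises; 26 of the main rises and 187 of the main falls were among them), a 2-fold minimum (41 and 198) and the neuronal (16 and 160), astrocyte (16 and 144) and radial glia (7 and 81) covariates. Same-numbered Control and T2MG libraries had correlations of deviations of 0.007, 0.33 and 0.097 and Control 1 correlated best with T2MG 3, so the numbers were not taken as pairs; the replicate block gave 46 rises and 230 falls, of which 34 and 212 were main calls.

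Genes called at E16 and P15 in the same direction (27 higher, 210 lower) numbered 76 higher with DESeq2 and 89 with voom, 7, 12 and 5 higher with the neuronal, astrocyte and radial glia covariates, and 102, 105 and 69 lower with them. Those called at E16 and P60 (34 and 267) numbered 123 higher with DESeq2, 294 with voom, 10, 11 and 6 higher and 119, 98 and 72 lower with the covariates. The difference between P15 and E16 was called in 385 genes with the radial glia covariate, and that between P60 and E16 in 1895 with the astrocyte covariate. Leaving out 1 library gave 13 to 265 rises, 132 to 696 falls, 11 to 48 and 11 to 99 rises and 95 to 271 and 111 to 374 falls shared with P15 and with P60, and 1411 to 2701 and 2301 to 3022 genes with a difference at P15 and at P60.

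Of 122 named genes called, 59 were called without each library in turn and all 122 kept their direction. The sign turned only in genes not called: Enpp2 (-0.07 with the neuronal and the radial glia covariate), Mrc1 (-0.12 neuronal, -0.13 astrocyte, -0.03 to 0.30 without 1 library), Tubb3 (-0.02) and Stmn2 (-0.13) with the neuronal covariate, Mki67 (-0.45 to 0.01 without 1 library, 0.01 with the sex term) and Vim (-0.45 to 0.05 without 1 library, 0.03 with the sex term). The cause was not tested. With 3 libraries a group, an exact permutation test of 1 gene cannot go below p = 0.10, so the calls rest on the spread shared over 20 libraries.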

Other observations

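Some called genes with small adjusted p were on none of the gene lists. Susd3, a sushi-domain membrane protein, fell from 69.1, 90.7 and 44.9 CPM to 12.2, 11.1 and 11.4 CPM (-2.56, SE 0.25, adjusted p = 4.81e-05 by edgeR). Phyhd1, a dioxygenase, fell from 67.6, 82.4 and 39.2 CPM to 15.8, 11.3 and 11.9 CPM (-2.28, SE 0.28, adjusted p = 0.000251), and Tmem63a, a mechanosensitive channel, from 87.2, 121 and 70.7 CPM to 36.7, 33.3 and 34.4 CPM (-1.42, SE 0.16, adjusted p = 0.000138). These 3 genes were picked by a rule that requires no overlap between the groups. All 3 were called without each library in turn.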
